A study of Mus musculus with 12 samples.

Results

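The 7 genes that encode the cyclin-dependent kinase (CDK) inhibitors of the mouse (Cdkn1a, Cdkn1b, Cdkn1c, Cdkn2a, Cdkn2b, Cdkn2c and Cdkn2d) and 3 genes of the p53 arm (Trp53, Mdm2 and Ccng1) were followed across 12 kidney RNA-seq libraries. They were taken from the deposited expression table by gene symbol, and all 10 were found among its 18803 genes. All 10 also passed the filter on low counts that left 15322 genes for testing, Cdkn2a only through the libraries of injured kidney.

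The libraries form 4 groups of 3, which cross genotype with surgery. Mice called WT carried floxed alleles of Wwp2 (WWP2 fl/fl), a ubiquitin ligase gene. Mice called PTCKO were a conditional Wwp2 knockout of the proximal tubule, so both genotypes are engineered lines. All were males of 8 weeks on a C57BL/6J background, and each genotype was studied after a sham operation or after UIR, an abbreviation used here as the labels give it, in a study of the passage from acute kidney injury to chronic kidney disease. The driver of the knockout, the exon removed and the time from UIR to tissue collection are stated in neither the labels nor the table. The RNA is from kidney tissue, not from sorted tubule cells.

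The labels PTCKO came with no drop of Wwp2 itself. Its level was 15.2 to 17.1 FPKM in the WT sham libraries and 15.6 to 17.6 FPKM in the PTCKO sham libraries. After UIR it was 17.6 to 19.2 FPKM in WT and 19.3 to 22.3 FPKM in PTCKO, where the log2 fold change was 0.25 (SE 0.0728, edgeR adjusted p = 0.0370). Each genotype direction below therefore rests on the labels alone. FPKM is a count of fragments divided by transcript length and library depth. Total expected counts per library were 15495163 to 19645743, and libraries of a group correlated at 0.982 to 0.989.

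CDK inhibitors come in 2 families. The CIP/KIP proteins p21 (Cdkn1a), p27 (Cdkn1b) and p57 (Cdkn1c) bind cyclin-CDK complexes of several kinds, whereas the INK4 proteins p16 (Cdkn2a), p15 (Cdkn2b), p18 (Cdkn2c) and p19 (Cdkn2d) bind CDK4 and CDK6 and keep them from cyclin D. The transcription factor p53 (Trp53) is held low by the ubiquitin ligase MDM2 and, when stabilised after damage, induces Cdkn1a, Ccng1 and Mdm2 itself, which closes a feedback loop. In kidney, p21 and p16 are widely used as markers of tubule cells that leave the cell cycle after injury and of senescence. Control of p53 and of p27 lies largely at the protein level, which RNA does not show.

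Letters that match the p53 consensus lie upstream of Trp53 itself and of Cdkn1a, Mdm2 and Ccng1. A p53 response element consists of a pair of decamers, and 7.13% of the 32851 promoter windows of 250 bases in the RefSeq table for GRCm38.p6 held at least 1 decamer matching the p53 consensus, on either strand. Of the 10 genes, 9 had a window in that table, with 12 windows in all, and 5 windows held a decamer, those of Cdkn1a, Mdm2, Ccng1, Trp53 and Cdkn2d. A pair of decamers up to 13 bases apart was found in 0.0639% of all windows (21 windows) and in 1 window of these genes, that of Cdkn1a. The stretches for Trp53 and these 3 targets are printed 5′ to 3′ on the gene's strand, with the decamers in capitals, from chr17:29090886-29090957 (plus strand), chr10:117710915-117710964 (minus), chr11:40755442-40755491 (minus) and chr11:69580264-69580313 (plus).
Cdkn1a: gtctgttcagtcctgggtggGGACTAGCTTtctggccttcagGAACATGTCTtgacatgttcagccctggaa
Mdm2: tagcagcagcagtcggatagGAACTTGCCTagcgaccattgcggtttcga
Ccng1: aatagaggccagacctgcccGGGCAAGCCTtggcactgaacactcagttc
Trp53: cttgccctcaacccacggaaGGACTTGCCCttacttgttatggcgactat
The Cdkn1a decamers lie 73 and 51 bases upstream of its start site at 29090979. The window of its other start site, at 29093769, held 0 decamers. The decamers of Mdm2, Ccng1 and Trp53 lie 186, 185 and 75 bases upstream of their start sites. A match describes letters in the window, not a site in use. CACGTG, the E-box letters, occurred in 6.02% of all windows and in 0 of the 12, and the palindromic glucocorticoid element in 0.00913% and in 0. The GC box GGGCGG was found in 32.7% of windows and in 6 of the 12, and TGACGTCA, the cyclic AMP element, in 1.55% and in the window of Cdkn2b.

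The Ink4 locus on chromosome 4 carries 3 start sites within a short span, and its promoters differ in CpG content. Cdkn2a (Entrez 12578, 89274473 to 89294619, GRCm38.p6) is read from 2 start sites, an upstream one for p19Arf, which stabilises p53 by binding MDM2, and a downstream one for p16Ink4a. The deposited values are per gene, so both transcripts are summed. Cdkn2b (Entrez 12579, 89306289 to 89311032) lies 11670 bases away. The 100 bases nearest each start that lie outside annotated exons are shown on the minus strand with CpG in capitals, from chr4:89282193-89282292, chr4:89294654-89294753 and chr4:89311040-89311139.
Cdkn2a, p16Ink4a start: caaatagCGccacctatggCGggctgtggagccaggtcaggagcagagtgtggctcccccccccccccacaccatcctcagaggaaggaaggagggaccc
Cdkn2a, p19Arf start: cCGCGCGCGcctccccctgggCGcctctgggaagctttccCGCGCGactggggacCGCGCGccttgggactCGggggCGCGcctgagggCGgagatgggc
Cdkn2b: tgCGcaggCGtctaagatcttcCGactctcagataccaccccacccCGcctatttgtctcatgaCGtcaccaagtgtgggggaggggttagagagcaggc
They hold 2, 15 and 5 CpG in that order.

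Cdkn1a, Cdkn1b, Cdkn1c, Cdkn2b, Cdkn2d and Trp53 rose with UIR in both genotypes. By edgeR's quasi-likelihood test with Benjamini-Hochberg adjustment over 15322 genes and a call at an adjusted p under 0.05, 7 of the 10 genes were called higher and 2 lower in WT, where 42.1% of all genes tested were called higher and 36.4% lower. In PTCKO, 8 were called higher and 2 lower, against 39.0% and 34.8% of all genes. These counts include Cdkn2a, which passed the filter through its UIR libraries alone and so had to be higher after UIR. Of the other 9 genes, 6 were higher and 2 lower in WT, and 7 and 2 in PTCKO. With most genes called, the count alone says little about these 10, and the levels and the order of the changes follow. Log2 fold changes below carry TMM scaling, which brings the centre of the genes near 0, while FPKM does not. The median gene moved by 0.10 on the log2 scale in WT and by 0.06 in PTCKO under TMM. With no scaling factors these medians were 0.82 and 0.57. In that setting 13127 of the 15322 genes were called in WT, 78.7% of them higher, and 12227 in PTCKO, 77.2% of them higher. List counts without scaling factors below are to be read beside these shares.

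**Figure D1:**
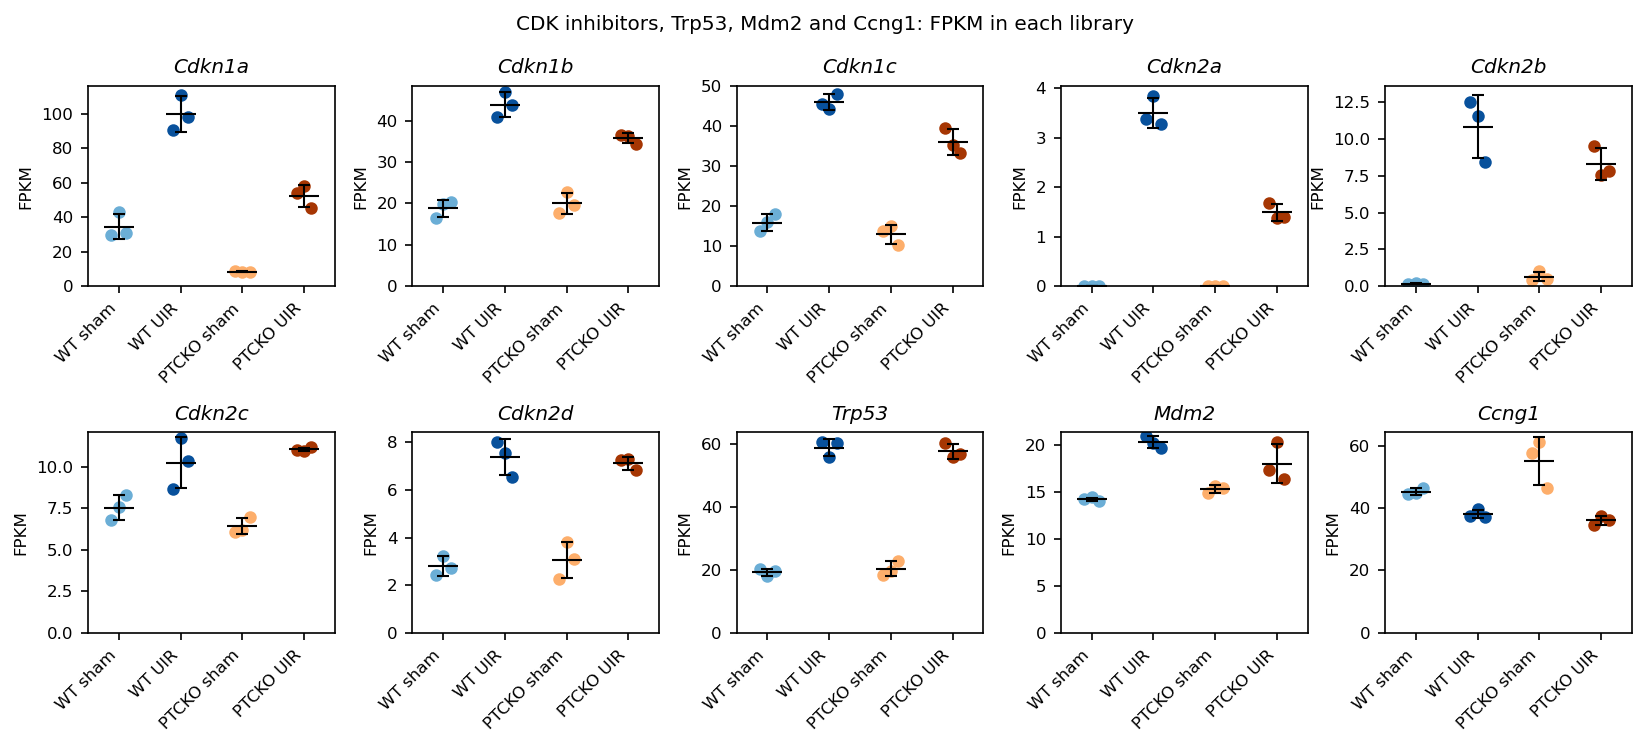
FPKM (vertical axis, from 0) of each of the 10 genes in the 12 libraries by group (horizontal axis). Points are libraries, the long bar is the mean and the error bar the SD (n = 3). Cdkn1a is lowest in PTCKO sham at 7.98 to 8.61, and Cdkn2a is at 0 in all 6 sham libraries.

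Cdkn1a, the p53-induced inhibitor p21 (Entrez 12575, chromosome 17, 29090979 to 29100722), was lower in PTCKO than in WT after sham and after UIR, and rose with UIR in both genotypes. The 3 libraries of WT sham gave 29.7, 42.7 and 30.7 FPKM, and those of WT UIR gave 90.6, 110.8 and 98.0 FPKM. In the libraries labelled PTCKO, Cdkn1a stood at 8.61, 7.98 and 8.36 FPKM after sham and at 53.8, 58.1 and 45.4 FPKM after UIR. In FPKM the 4 groups did not overlap, and their order from low to high was PTCKO sham, WT sham, PTCKO UIR and WT UIR. As TMM-scaled CPM, PTCKO UIR (72.4 to 86.8) and WT sham (71.1 to 100.4) overlapped, and this pair of groups was not tested. PTCKO sham, at 17.4 to 19.4 TMM-scaled CPM, stayed below and WT UIR, at 131 to 163, above the rest. In the sham comparison PTCKO was lower than WT, with a log2 fold change of -2.17 (SE 0.136, edgeR adjusted p = 1.07e-05), and in the UIR comparison the value was -0.87 (SE 0.123, edgeR adjusted p = 0.00115). UIR raised it by 0.83 in WT (SE 0.124, edgeR adjusted p = 3.37e-05) and by 2.14 in PTCKO (SE 0.135, edgeR adjusted p = 1.04e-08). Those rises differed by 1.31 on the log2 scale (SE 0.181, edgeR adjusted p = 0.00165 for the interaction). On a linear scale the 2 rises were close with TMM kept, at 64.5 TMM-scaled CPM in WT and 62.4 in PTCKO. In FPKM, which has no such scaling, they were 65.4 in WT and 44.1 in PTCKO. All 5 calls on Cdkn1a held when any 1 library was left out.

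Cdkn1b, which encodes p27, the inhibitor of resting cells (Entrez 12576, chromosome 6, 134920401 to 134925525), showed no call between genotypes. Sham libraries held 16.4, 19.7 and 20.2 FPKM in WT and 17.8, 22.7 and 19.6 FPKM in PTCKO, 2 sets that overlap. UIR libraries held 40.8, 46.8 and 43.7 FPKM in WT and 36.6, 36.3 and 34.3 FPKM in PTCKO, with every PTCKO library below every WT library. The rise with UIR was 0.51 on the log2 scale in WT (SE 0.101, edgeR adjusted p = 0.000424) and 0.32 in PTCKO (SE 0.101, edgeR adjusted p = 0.0111). Without PTCKO sham replicate 1 the second value was 0.26 and lost its call (edgeR adjusted p = 0.0566, range over the 12 libraries left out 0.00379 to 0.0566). The genotype difference after UIR, -0.23, did not pass the test (SE 0.0995, edgeR adjusted p = 0.156).

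Cdkn1c encodes p57, an imprinted inhibitor that podocytes are known for (Entrez 12577, chromosome 7, 143458339 to 143461059). WT libraries gave 13.7, 15.99 and 18.1 FPKM after sham and 45.6, 44.3 and 48.2 FPKM after UIR. The PTCKO libraries gave 13.7, 15.0 and 10.2 FPKM after sham and 39.5, 35.4 and 33.3 FPKM after UIR, and sham and UIR did not overlap in either genotype. UIR raised Cdkn1c by 0.82 in WT (SE 0.135, edgeR adjusted p = 8.23e-05) and by 0.96 in PTCKO (SE 0.137, edgeR adjusted p = 2.68e-05). The genotype differences of -0.42 after sham (edgeR adjusted p = 0.0670) and -0.28 after UIR (edgeR adjusted p = 0.175) did not pass. Podocyte markers moved alongside: 7 of 8 were called higher and 1 lower after UIR in WT, and no marker was at 0. Their summed level in WT lay between 79.3 and 107 FPKM after sham and between 220 and 246 FPKM after UIR. In PTCKO, where 4 were higher and 1 lower, it lay between 94.3 and 105 FPKM after sham and between 162 and 206 FPKM after UIR. Their part in the Cdkn1c values was not tested, and in tissue RNA a change in the number of such cells and a change in RNA per cell cannot be told apart. Slc22a18, an organic cation transporter gene 12667 bases from Cdkn1c, went the other way, with a log2 fold change of -4.56 in WT (SE 0.198, edgeR adjusted p = 2.98e-10).

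Counts of Cdkn2a came from the UIR libraries only. All 6 sham libraries had an expected count of 0, while the WT UIR libraries had 57, 64 and 47 and the PTCKO UIR libraries 22, 23 and 23. In FPKM these were 3.38, 3.85 and 3.28 in WT and 1.69, 1.38 and 1.40 in PTCKO, so the genotypes did not overlap after UIR. Against a floor of 3 counts per sham library, the TMM-scaled level was at least 10.2-fold higher after UIR in WT and at least 4.71-fold higher in PTCKO. Without scaling factors these bounds were 16.7-fold and 6.72-fold. A count of 0 sets no lower level than that floor, and no fold was computed between the sham groups. After UIR the libraries labelled PTCKO were lower by a log2 fold change of -1.17 (SE 0.242, edgeR adjusted p = 0.0139). This call rests on few reads and was lost without WT UIR replicate 1 (-1.19, edgeR adjusted p = 0.0522) or PTCKO UIR replicate 3 (-1.16, edgeR adjusted p = 0.0656), with a range of 0.0123 to 0.0656 over the 12 libraries left out.

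Its neighbour Cdkn2b, the gene for p15, an inhibitor induced by TGF-beta in epithelial cells, had the largest fitted rise of the 9 members with counts in sham. WT libraries had expected counts of 4, 5 and 3 after sham and of 330, 306 and 191 after UIR. PTCKO libraries had 9, 22 and 11 after sham and 199, 200 and 200 after UIR. In the same order the levels were 0.18, 0.23 and 0.13 FPKM, 12.5, 11.6 and 8.47 FPKM, 0.42, 1.03 and 0.52 FPKM, and 9.56, 7.59 and 7.82 FPKM. Sham libraries of the 2 genotypes did not overlap, while the UIR libraries did. The log2 fold change with UIR was 5.19 in WT (SE 0.321, edgeR adjusted p = 5.08e-09) and 3.14 in PTCKO (SE 0.262, edgeR adjusted p = 1.39e-07), and these differed by -2.04 (SE 0.488, edgeR adjusted p = 0.0132). That gap came with a higher sham level in PTCKO, 1.73 on the log2 scale (SE 0.448, edgeR adjusted p = 0.0327), and with a difference after UIR of -0.32 that did not pass (edgeR adjusted p = 0.306). The sham call stands on 3 to 22 counts a library. It was lost without WT sham replicate 1 (1.72, edgeR adjusted p = 0.0735), WT sham replicate 3 (1.57, 0.122), PTCKO sham replicate 2 (1.25, 0.107) or PTCKO sham replicate 3 (1.88, 0.0501), while the interaction held in all 12.

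The 2 genes of the locus stood in different proportions in the 2 genotypes. Within each library, the ratio of Cdkn2a to Cdkn2b FPKM after UIR was 0.270, 0.332 and 0.387 in WT and 0.177, 0.182 and 0.179 in PTCKO, with no overlap. Mtap, the methylthioadenosine phosphorylase gene 93383 bases on the far side of Cdkn2a, was called in 0 of the 5 comparisons (edgeR adjusted p from 0.0544 to 0.981). Polycomb proteins keep this locus silent in young tissue. Of 11 genes for such repressors and the T-box factors that assist them, 6 were called higher and 3 lower after UIR in WT (median log2 fold change 0.31, against 0.10 for all genes), and 5 and 3 in PTCKO (median 0.26 against 0.06). Over all genes 42.1% were higher and 36.4% lower in WT, and 39.0% and 34.8% in PTCKO. Without scaling factors the counts of these 11 were 10 higher and 0 lower in WT and 8 and 0 in PTCKO. Ezh2, the methyltransferase, rose by 1.34 in WT (SE 0.125, edgeR adjusted p = 3.04e-07) and by 1.45 in PTCKO (SE 0.125, edgeR adjusted p = 1.92e-07). Tbx3, a repressor of p19Arf, was the 1 gene of the list called between genotypes after UIR, at 2.86 ± 0.304 FPKM in WT and 1.89 ± 0.0874 FPKM in PTCKO (SD, n = 3), a log2 fold change of -0.54 (SE 0.127, edgeR adjusted p = 0.0143). After sham it was higher in PTCKO by 0.57 (SE 0.148, edgeR adjusted p = 0.0323), as was Cbx7, a Polycomb reader of histone methylation, by 0.32 (SE 0.0871, edgeR adjusted p = 0.0365).

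Cdkn2c (Entrez 12580, chromosome 4, 109660876 to 109666756) and Cdkn2d (Entrez 12581, chromosome 9, 21288459 to 21291421) had smaller UIR effects than Cdkn2b. Cdkn2c, which encodes p18, stood at 6.76, 7.56 and 8.27 FPKM in WT sham and 8.67, 11.7 and 10.4 FPKM in WT UIR. PTCKO libraries held 6.05, 6.21 and 6.99 FPKM after sham and 11.0, 11.0 and 11.2 FPKM after UIR. Its log2 fold change with UIR was -0.16 in WT, which did not pass (edgeR adjusted p = 0.188) and turned to 0.55 without scaling factors, and 0.26 in PTCKO (SE 0.110, edgeR adjusted p = 0.0464). That last call was lost in 9 of the 12 runs with 1 library left out, with adjusted p from 0.0428 to 0.155. Cdkn2d, which encodes the p19 of the INK4 family and not p19Arf, gave 2.43, 3.24 and 2.72 FPKM in WT sham and 8.02, 7.55 and 6.55 FPKM in WT UIR. Its values in PTCKO were 2.27, 3.81 and 3.10 FPKM after sham and 7.24, 7.30 and 6.82 FPKM after UIR, and genotypes overlapped at both. UIR raised Cdkn2d by 0.69 in WT (SE 0.171, edgeR adjusted p = 0.00232) and by 0.70 in PTCKO (SE 0.171, edgeR adjusted p = 0.00221).

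**Figure D2:**
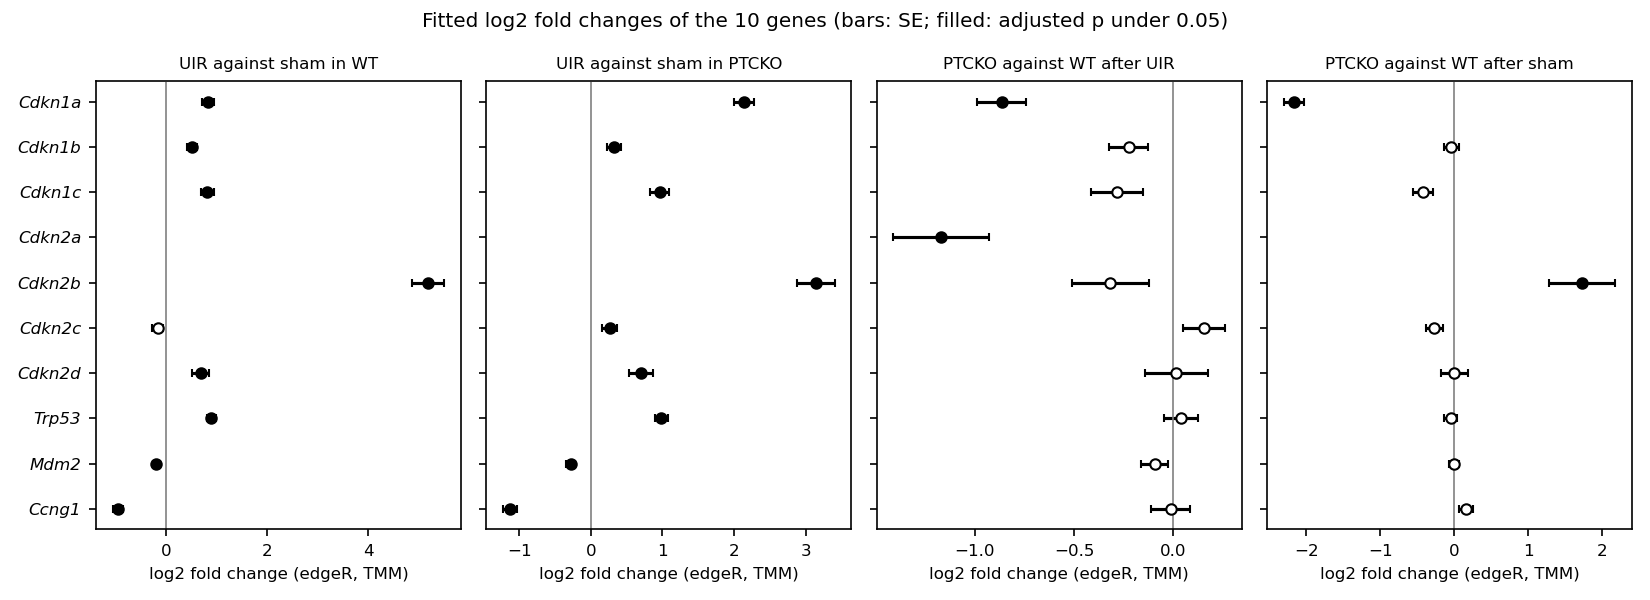
Log2 fold change (horizontal axis) of each gene in 4 comparisons from edgeR with TMM scaling. Points are fitted values, bars their SE, filled points passed an adjusted p under 0.05, and each panel has its own axis range. Cdkn2a is shown for the genotypes after UIR only, since its sham counts were 0. Between genotypes the filled points are Cdkn1a and Cdkn2a after UIR and Cdkn1a and Cdkn2b after sham.

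Between genotypes, few of the 10 genes were called. After UIR 0 were higher and 2 lower in PTCKO (Cdkn1a and Cdkn2a), where 9.30% of all genes tested were higher and 4.50% lower. After sham 1 was higher (Cdkn2b) and 1 lower (Cdkn1a), against 5.23% and 5.50% of all genes. In the interaction 1 was higher (Cdkn1a) and 1 lower (Cdkn2b), against 14.4% and 7.08%. Among 15322 genes, Cdkn1a ranked 56 from the lowest log2 fold change after sham and 306 from the lowest after UIR, while Cdkn2b ranked 144 from the highest after sham.

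Since all 7 genes encode inhibitors of cell cycle kinases, their share of the inhibitor transcripts within each library was computed, a measure that no scaling between libraries can change. Cdkn1a made up 43.0% ± 4.73 of the summed inhibitor FPKM in WT sham and 44.97% ± 1.82 in WT UIR, but 16.3% ± 1.92 in PTCKO sham and 34.4% ± 2.36 in PTCKO UIR (SD, n = 3). The largest share in the sham libraries labelled PTCKO was that of Cdkn1b, at 38.8% ± 2.13 against 23.7% ± 1.60 in WT sham. The CIP/KIP genes together held 86.7% ± 0.818 in WT sham, 85.6% ± 1.23 in WT UIR, 80.3% ± 1.95 in PTCKO sham and 81.6% ± 1.03 in PTCKO UIR. Cdkn2c took 9.52% ± 0.963 of the sum in WT sham and 4.61% ± 0.420 in WT UIR. The sum itself was 79.6 ± 10.2 FPKM in WT sham, 222 ± 13.8 in WT UIR, 51.4 ± 4.53 in PTCKO sham and 152 ± 10.5 in PTCKO UIR.

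**Figure D3:**
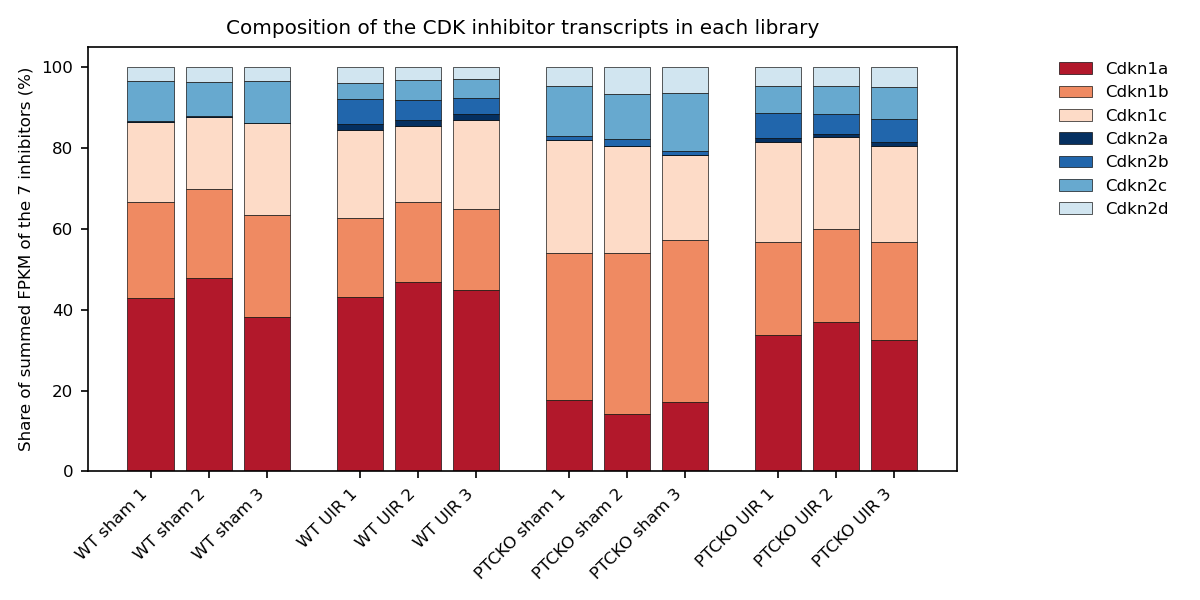
Share of the summed FPKM of the 7 CDK inhibitor genes (vertical axis, percent) in each of the 12 libraries (horizontal axis). Colours are genes, reds for CIP/KIP and blues for INK4. The dark red Cdkn1a part is 38.3% to 47.8% in the WT libraries, 14.1% to 17.6% in the PTCKO sham bars and 32.4% to 37.0% in the PTCKO UIR bars.

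Trp53, the gene for p53 (Entrez 22059, chromosome 11, 69580348 to 69591873), rose with UIR in both genotypes and was not called between them. Sham libraries gave 20.3, 18.1 and 19.5 FPKM in WT and 18.3, 19.7 and 22.99 FPKM in PTCKO, and UIR libraries gave 60.6, 55.9 and 60.4 FPKM and 60.6, 55.9 and 57.0 FPKM. Sham and UIR did not overlap and the genotypes did. The rise was 0.90 on the log2 scale in WT (SE 0.0876, edgeR adjusted p = 5.10e-07) and 0.98 in PTCKO (SE 0.0877, edgeR adjusted p = 2.77e-07). The genotype differences were 0.04 after UIR (SE 0.0847, edgeR adjusted p = 0.804) and -0.05 after sham (edgeR adjusted p = 0.757), so neither passed. Wrap53 starts 98 bases away on the annotation, and without a stated strand setting reads of the 2 genes cannot be fully told apart.

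Mdm2, which encodes the ligase that degrades p53 (Entrez 17246, chromosome 10, 117688875 to 117710758), had the narrowest range of group means in proportion to its level. Its libraries held 14.2, 14.4 and 14.1 FPKM in WT sham, 21.0, 20.2 and 19.7 FPKM in WT UIR, 14.9, 15.6 and 15.4 FPKM in PTCKO sham and 17.4, 20.3 and 16.4 FPKM in PTCKO UIR. With TMM scaling Mdm2 was called lower after UIR, at -0.19 in WT (SE 0.0680, edgeR adjusted p = 0.0185) and -0.28 in PTCKO (SE 0.0682, edgeR adjusted p = 0.00201), but without scaling factors it was called higher, at 0.52 and 0.23 (edgeR adjusted p = 4.61e-05 and 0.0179). Its direction therefore depends on the scaling, and relative to the median of all genes it was lower under both. Mean Mdm2 FPKM rose with UIR from 14.2 to 20.3 in WT and from 15.3 to 18.0 in PTCKO. Trp53 rose more, from 19.3 to 59.0 and from 20.3 to 57.8. The ratio of Mdm2 to Trp53 FPKM, which does not depend on scaling between libraries, was therefore lower after UIR. It was 0.739 ± 0.0502 in WT sham, 0.345 ± 0.0175 in WT UIR, 0.758 ± 0.0777 in PTCKO sham and 0.313 ± 0.0441 in PTCKO UIR (SD, n = 3). No UIR library overlapped a sham library in that ratio.

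Ccng1, which encodes cyclin G1, a p53 target that recruits a phosphatase to MDM2 (Entrez 12450, chromosome 11, 40748552 to 40755309), fell with UIR in the TMM-scaled values. WT libraries gave 44.4, 44.9 and 46.5 FPKM after sham and 37.6, 39.7 and 37.3 FPKM after UIR, and PTCKO libraries 57.9, 61.3 and 46.6 FPKM and 34.6, 37.6 and 36.1 FPKM. The log2 fold change was -0.96 in WT (SE 0.0994, edgeR adjusted p = 9.41e-07), where limma on TPM gave -0.07 with no call (limma adjusted p = 0.461), and -1.13 in PTCKO (SE 0.0997, edgeR adjusted p = 2.50e-07). Ccng1 per Trp53 went from 2.35 ± 0.147 to 0.649 ± 0.0523 in WT and from 2.77 ± 0.640 to 0.626 ± 0.0516 in PTCKO. Cdkn1a per Trp53 differed from both: it was 1.80 ± 0.488 in WT sham and 1.70 ± 0.254 in WT UIR, 2 overlapping sets, and 0.413 ± 0.0541 and 0.908 ± 0.123 in PTCKO. Between sham and UIR, the ratios of Mdm2 and of Ccng1 to Trp53 were thus lower after UIR in both genotypes, while that of Cdkn1a overlapped in WT and was higher in PTCKO. No test was run on these ratios.

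**Figure D4:**
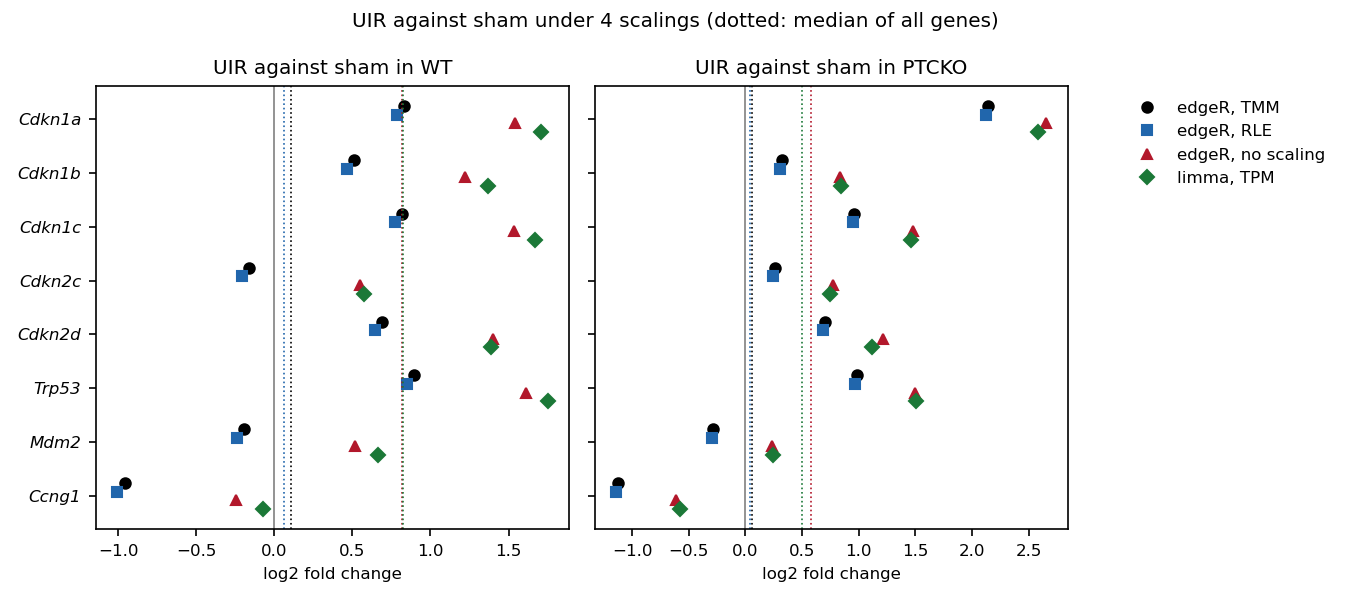
Log2 fold change of UIR against sham (horizontal axis) for 8 genes under 4 scalings (symbols), in WT (left) and PTCKO (right). The dotted lines are the medians of all genes, 0.10 with TMM and 0.82 without scaling in WT. Mdm2 lies on either side of 0 in both panels, Cdkn2c in WT only, and Cdkn1a, Cdkn1b, Cdkn1c, Cdkn2d and Trp53 stay above 0 under all 4.

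Other p53 target genes moved both ways with UIR. Of 42 such genes listed beside the 10, 40 were tested, and 23 were called higher and 12 lower in WT (median log2 fold change 0.42, against 0.10 for all genes), where 42.1% and 36.4% of all genes were called. In PTCKO 22 were higher and 9 lower (median 0.69 against 0.06), beside 39.0% and 34.8% of all genes, and without scaling factors the counts were 31 and 5 in WT and 28 and 5 in PTCKO. Bbc3, the apoptosis gene for PUMA, rose by 2.69 in WT (SE 0.142, edgeR adjusted p = 1.16e-09) and by 2.71 in PTCKO (SE 0.143, edgeR adjusted p = 2.26e-09), from 1.20 ± 0.185 to 13.03 ± 0.893 FPKM in WT. Sfn, the 14-3-3 sigma gene of the G2 checkpoint, went from 5.86 ± 1.42 to 59.1 ± 6.61 FPKM in WT and from 5.36 ± 0.460 to 61.2 ± 8.79 FPKM in PTCKO. Apaf1, the apoptosome scaffold, rose in WT by 2.40 (SE 0.152, edgeR adjusted p = 6.53e-09). Phlda3, an AKT inhibitor, rose in PTCKO by 2.87 (SE 0.206) and Pmaip1, the gene for NOXA, by 1.91 (SE 0.153). Dcxr, a carbonyl reductase abundant in proximal tubule, fell in WT by 3.37 on the log2 scale (SE 0.200, edgeR adjusted p = 3.43e-09).

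Between genotypes after UIR, 1 of the 40 targets was higher and 5 lower in PTCKO (median -0.10, against 0.00 for all genes). Over all genes 9.30% were higher and 4.50% lower there. Dcxr was higher, at 39.7 ± 11.0 FPKM against 21.1 ± 3.55 in WT (log2 fold change 0.99, SE 0.188, edgeR adjusted p = 0.00440). Plk2, a polo-like kinase, was lower by a log2 fold change of -0.62 (SE 0.121, edgeR adjusted p = 0.00518), Fas, the death receptor, by -0.46 (SE 0.101, edgeR adjusted p = 0.00998), and Steap3, a metalloreductase, by -0.94 (SE 0.210, edgeR adjusted p = 0.0105). After sham 1 was higher and 2 lower (median -0.06), beside 5.23% and 5.50% of all genes. Trp53inp1, a p53-induced nuclear protein, was lower in PTCKO by -0.69 (SE 0.111, edgeR adjusted p = 0.00686) and Aen, an apoptosis-enhancing nuclease, by -0.40 (SE 0.0846, edgeR adjusted p = 0.0175), while Rrm2b, the p53-induced ribonucleotide reductase subunit, was higher by 0.47 (SE 0.134, edgeR adjusted p = 0.0424). In the interaction 6 were higher and 5 lower, beside 14.4% and 7.08% of all genes. Among them were Dcxr at 1.46 (SE 0.261, edgeR adjusted p = 0.00432) and Steap3 at -1.74 (SE 0.321, edgeR adjusted p = 0.00499). Cdkn1a, at -2.17 after sham, lay outside the range of all 40 targets tested there.

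**Figure D5:**
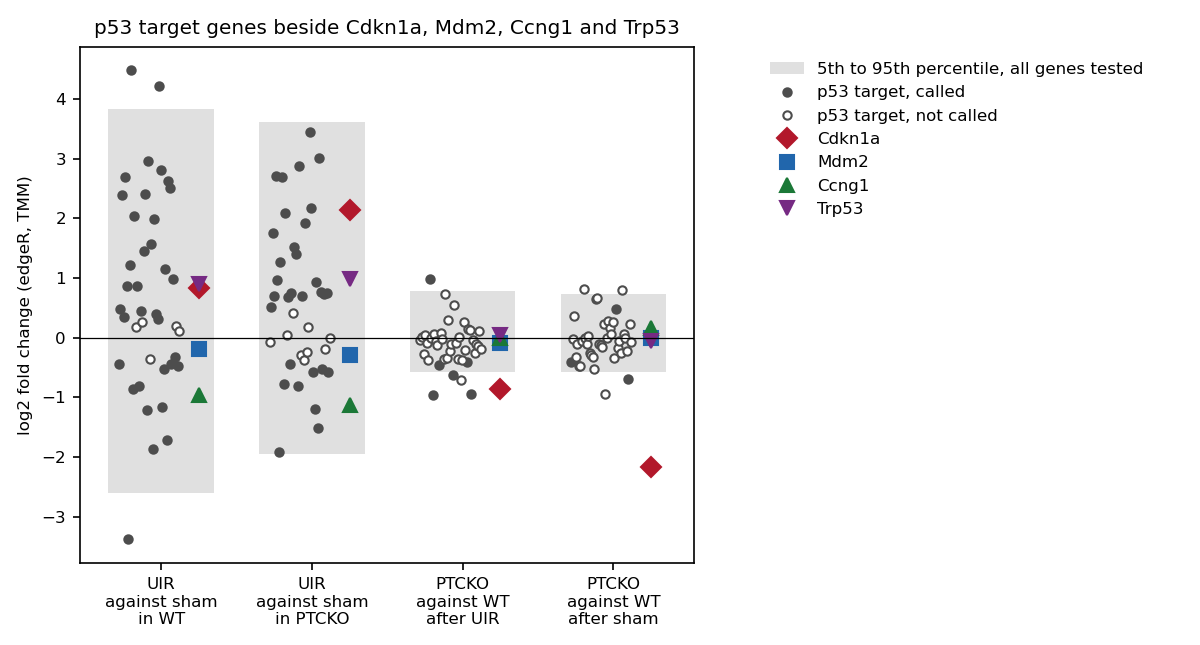
Log2 fold change (vertical axis, edgeR with TMM) of the 40 tested p53 target genes (grey points, filled where called) in 4 comparisons, beside Cdkn1a, Mdm2, Ccng1 and Trp53. The grey band spans the 5th to the 95th percentile of all genes tested. Cdkn1a lies below the band in both comparisons of genotype, at -0.87 and -2.17, while Trp53 and Mdm2 lie near 0 there.

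Of 18 regulators of p53, 8 were called higher and 5 lower after UIR in WT, and 8 and 7 in PTCKO, shares near those of all genes given above. Between genotypes after UIR edgeR called 0 of them, with 2 at an unadjusted p under 0.05, and DESeq2 and limma on TPM also called 0. Without scaling factors the WT and PTCKO counts were 16 and 0, and 14 and 1, where 78.7% and 77.2% of the calls over all genes were higher. Trp53bp1, which encodes a p53-binding DNA repair factor, rose by 0.79 in WT and Chek1, the checkpoint kinase, by 3.01 (edgeR adjusted p = 2.76e-07 and 1.34e-06). The rise of Chek1 started from a low WT sham mean of 0.0967 FPKM. After sham, Crebbp, an acetyltransferase of p53, was lower in PTCKO by -0.43 (SE 0.104, edgeR adjusted p = 0.0251) and Rpl11, a ribosomal protein that binds MDM2, by -0.51 (SE 0.138, edgeR adjusted p = 0.0372), calls that were lost without scaling factors (edgeR adjusted p = 0.0645 and 0.0559). Of 10 tested genes for the ubiquitin machinery of the inhibitors, 5 were higher and 4 lower with UIR in WT, 4 and 2 in PTCKO. Over all genes 42.1% were higher and 36.4% lower in WT, and 39.0% and 34.8% in PTCKO. Between genotypes after UIR edgeR called 0 of these 10, with 2 at an unadjusted p under 0.05, and DESeq2 called 2 higher. Skp1, the adaptor subunit of the ligase that removes p27, fell by 1.53 on the log2 scale in WT and by 1.01 in PTCKO (edgeR adjusted p = 9.25e-09 and 7.64e-07). Skp2, the F-box subunit of that ligase, was higher in PTCKO sham by 0.73 (SE 0.211, edgeR adjusted p = 0.0458). Of the p53 relatives, Trp63 rose from 0.0633 ± 0.0153 to 0.253 ± 0.0404 FPKM in WT (log2 fold change 1.42, SE 0.381, edgeR adjusted p = 0.00381), and Trp73 was too low to be tested.

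The kinases and cyclins that the inhibitors act on were also followed. Of 15 tested genes for CDKs and cyclins, 11 were called higher and 3 lower with UIR in WT (median 0.99) and 10 and 3 in PTCKO (median 0.90). Over all genes 42.1% were higher and 36.4% lower in WT, and 39.0% and 34.8% in PTCKO. Without scaling factors the counts of these 15 were 13 and 0, and 12 and 0. Ccnd2, a D-type cyclin, went from 1.18 ± 0.127 to 10.5 ± 1.07 FPKM in WT and from 1.32 ± 0.0896 to 7.45 ± 1.24 FPKM in PTCKO, and was the 1 gene of the list called between genotypes after UIR (log2 fold change -0.43, SE 0.107, edgeR adjusted p = 0.0189). The other D-type cyclins were lower with UIR under TMM, Ccnd1 by -0.84 in WT and -0.64 in PTCKO and Ccnd3 by -0.55 and -0.37 (edgeR adjusted p = 0.000188, 0.00174, 1.42e-05 and 0.000602). Without scaling factors Ccnd1 was not called and Ccnd3 turned to 0.16 in WT and 0.15 in PTCKO. Cdk1, the mitotic kinase, rose by 3.84 in WT (SE 0.335) and Ccnb1, its cyclin, by 3.55 (SE 0.298), from low sham means of 0.113 and 0.13 FPKM. After sham Ccnd3, another D-type cyclin, was lower in PTCKO by -0.31 (SE 0.0750, edgeR adjusted p = 0.0255), which was -0.18 with no call without scaling factors (edgeR adjusted p = 0.0980). Of 15 genes of the RB and E2F axis, 7 were higher and 4 lower in WT, 4 and 5 in PTCKO, beside the same shares of all genes. Without scaling factors the counts of this list were 13 and 0, and 10 and 0. Between genotypes after UIR edgeR called 0 of it, with 1 at an unadjusted p under 0.05, and DESeq2 called 0. E2f8, a repressive E2F, rose by 4.28 in WT (SE 0.381) and by 2.52 in PTCKO (SE 0.341), and E2f1, an activating one, by 1.42 (SE 0.182) and 1.02 (SE 0.180). The sham means of E2f8 were only 0.0467 FPKM in WT and 0.113 FPKM in PTCKO, so the sizes of its rises rest on low sham levels. After sham 4 of the 15 were higher in PTCKO and 0 lower, beside 5.23% and 5.50% of all genes. They were Lin9, Lin54, Tfdp2 and Rbl2, by 0.50, 0.65, 0.35 and 0.36 (edgeR adjusted p = 0.0382, 0.0399, 0.0424 and 0.0486). These calls lie near the threshold, and all genes called after sham ran from 433 to 2198 with 1 library left out.

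All 14 proliferation markers were called higher with UIR in each genotype, and edgeR and DESeq2 called 0 between genotypes after sham or after UIR. At an unadjusted p under 0.05 edgeR had 3 after sham and 0 after UIR, and limma on TPM called 1 higher after sham and 1 lower after UIR. The median log2 rise with UIR was 2.93 in WT and 2.48 in PTCKO. In the interaction edgeR called 0 higher and 1 lower, beside 14.4% and 7.08% of all genes. The median there was -0.61, against -0.0015 for all genes, with 3 markers at an unadjusted p under 0.05. Mki67 went from 0.163 ± 0.0115 to 4.29 ± 0.723 FPKM in WT and from 0.257 ± 0.0586 to 3.51 ± 0.608 FPKM in PTCKO. Inhibitor and proliferation transcripts were thus both high in the same tissue RNA, which does not show whether they came from the same cells.

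Markers of kidney and immune cell types moved with these results. All 10 proximal tubule markers were called lower with UIR in each genotype, with a summed level of 6935 to 7097 FPKM in WT sham and 296 to 629 FPKM in WT UIR. Slc34a1 was the largest part of these sums, with means of 4734 and 292 FPKM. After UIR 9 of the 10 markers were higher in PTCKO than in WT, beside the lower Cdkn1a and Cdkn2a there. Their summed level was 917 to 1525 FPKM in PTCKO UIR. Over all genes 9.30% were higher and 4.50% lower in that comparison. All 8 macrophage markers were higher with UIR in each genotype, and after UIR 2 of 8 were lower in PTCKO. The sum of the 8 was 3209 to 4209 FPKM in PTCKO UIR, against 4599 to 7085 in WT UIR. Lyz2 was the largest part of these sums, with means of 1941 and 3489 FPKM, while Cx3cr1 was level at 31.5 and 31.2. Ranges for the other lists below are sums as well. Of 8 fibroblast and smooth muscle markers 3 were lower in PTCKO after UIR (727 to 817 FPKM, against 1009 to 1255 in WT), and of 8 endothelial markers 7 (227 to 267 FPKM, against 317 to 357). No defining marker of these lists was at 0 in any group. The part of these shifts in the values of the inhibitors was not tested. After sham the proximal tubule list had 0 higher and 1 lower, the macrophage list 1 and 1, the fibroblast list 0 and 0, the endothelial list 1 and 0, the podocyte list 0 and 1 and the thick ascending limb list 1 and 0, beside the lowest Cdkn1a levels of the 4 groups. In that sham comparison edgeR called 5.23% of all genes higher and 5.50% lower. DESeq2 called 0 higher and 1 lower of the proximal tubule list and 1 and 0 of the fibroblast list. The thick ascending limb gene was Slc12a1, the sodium-potassium-chloride cotransporter, at 139 to 267 FPKM in PTCKO sham and 79.0 to 85.8 FPKM in WT sham (log2 fold change 1.06, SE 0.249, edgeR adjusted p = 0.0243). Among the smaller lists, 5 of 7 collecting duct, 2 of 4 distal convoluted tubule and 3 of 5 B and plasma cell markers were called higher in PTCKO after UIR, and 1 of 7 collecting duct and 2 of 6 erythroid markers lower. The 2 erythroid genes were Hbb-b1 (1.93 FPKM, against 582 in WT) and Hbb-b2 (0.157 against 46.5). Their relatives Hbb-bs (824 against 292) and Hbb-bt (88.5 against 32.9) had higher means in PTCKO with no call. Hba-a1 and Alas2 were not called either. The Hbb genes also spread widely within groups. In WT sham Hbb-bs ran from 1.15 to 301 FPKM and Hbb-b1 from 8.11 to 392 FPKM. Hbb-bs ran from 3.16 to 550 FPKM in WT UIR, while Hbb-b1 stayed at 0.79 to 2.82 FPKM in PTCKO UIR. The erythroid list thus did not move as 1, and the cause was not tested. In that comparison edgeR called 0 of 4 thick ascending limb, 0 of 5 T and NK cell and 0 of 4 neutrophil markers, with 2, 0 and 3 at an unadjusted p under 0.05, and DESeq2 called 1, 0 and 1.

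Beside the low Cdkn1a of PTCKO sham, 2 other sets of genes moved. Of 11 genes induced by glucocorticoids, a group to which Cdkn1a can belong, 0 were higher and 5 lower in PTCKO after sham (median -0.72). Over all genes 5.23% were higher and 5.50% lower there. Without scaling factors the count of these 11 was again 0 higher and 5 lower, where 84.4% of the calls over all genes were higher. After UIR it was also 0 higher and 5 lower (median -0.33), beside 9.30% and 4.50% of all genes. In PTCKO sham Sgk1, a kinase of sodium transport, was at 30.7 ± 2.86 FPKM against 73.3 ± 4.11 in WT sham. Tsc22d3, the leucine zipper GILZ, was at 15.5 ± 1.09 against 34.6 ± 2.54 in these groups. Of 16 clock genes 6 were higher and 4 lower in PTCKO after sham, and 7 and 3 after UIR, beside the same shares of all genes. Dbp, an output factor of the clock, stood at 41.0 ± 6.76 FPKM in PTCKO sham and 5.49 ± 4.20 in WT sham. The labels give no hour of collection, and the part of either set in the Cdkn1a values was not tested.

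Genes whose levels ran most like those of 3 members were sought over the 12 libraries among 9224 expressed genes, by Pearson's r of log2 TMM-scaled CPM. Closest to Cdkn1a were Rcn2 (r = 0.964), a calcium-binding protein of the endoplasmic reticulum, Actg1 (0.954), a cytoplasmic actin, and Trp53inp1 (0.944), a p53 target. Cdkn1c was matched best by Ramp2 (0.970), a receptor partner in endothelium, Ndufa4l2 (0.970), a mitochondrial protein, and Usf1 (0.968), a transcription factor. For Mdm2 they were Cdo1 (0.972), the cysteine dioxygenase, Spopl (0.965), a cullin adaptor, and Prps2 (0.958), an enzyme of nucleotide synthesis. These values describe 12 libraries that fall into 4 groups and share their depth, and carry no test.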

How the data were processed

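Kidney RNA of 12 libraries in 4 groups of 3 was analysed from a table with 1 row per gene. Per the submitters' processing notes, Bowtie2, RSEM and DESeq2 were used with GRCm38.p6; the notes name no versions, filters or strand setting. The authors deposited expected counts per gene, in which 30.8% to 35.4% of values in a library were not whole (tolerance 1e-06), as RSEM makes them. The authors also deposited FPKM and TPM for the same libraries, in which length and depth are divided out but no TMM scaling is applied.

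Expected counts were rounded to whole numbers, filtered with filterByExpr (15322 of 18803 genes left) and tested with edgeR 4.0.16 in R 4.3.3, by the quasi-likelihood test with TMM scaling and 1 coefficient per group over all 12 libraries (8 residual degrees of freedom). P-values were adjusted by Benjamini-Hochberg over all genes tested in each of 5 comparisons, which include the interaction of UIR and genotype, and an adjusted p under 0.05 was a call. The comparisons share groups. The standard error of a log2 fold change was its size divided by the square root of the F statistic. Nothing ties a library to an animal, so a p-value covers only how these 12 libraries vary, which may be technical. Counting error limits Cdkn2a and Cdkn2b in sham most, where a count of 0 was replaced by a floor of 3 counts per library for a bound.

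Alternatives were DESeq2 1.42.0, limma 3.58.1 on log2(FPKM + 1), log2(FPKM + 0.1) and log2(TPM + 1) with genes at 1 FPKM in at least 3 libraries or with no filter, RLE factors, no scaling factors, no count filter, the replicate number as a block, only the 2 groups compared, and each library left out. All 10 genes are named. From each of 22 gene lists up to 4 genes with the smallest p per comparison were named where called, and list counts stand for the rest. The members and the lists were chosen with earlier results of these data known. Genes like a member were ranked among tested genes with a mean of at least 5 FPKM, leaving out predicted genes and pseudogenes. Promoter stretches are from the RefSeq promoter table for GRCm38.p6, over 250 bases before the start, and coordinates are from the RefSeq gene table of that build. The window of Cdkn1c was not used here.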

Additional observations from a re-analysis of the deposited data

Results flagged for a closer look

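The UIR effect on Cdkn1a differed between genotypes. The rise in PTCKO minus the rise in WT was 1.3064 on the log2 scale (SE 0.181, edgeR adjusted p = 0.00165 for the interaction), and it was called in all 12 runs that left out 1 library (1.14 to 1.40) and under the other alternatives run (0.88 to 1.34). The sham level was 8.32 ± 0.317 FPKM in PTCKO and 34.4 ± 7.27 FPKM in WT (SD, n = 3). On a linear scale the rises were 64.5 TMM-scaled CPM in WT and 62.4 in PTCKO, and without TMM scaling 65.4 FPKM and 44.1 FPKM.

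The UIR effect on Cdkn2b differed the other way, by -2.0443 on the log2 scale (SE 0.488, edgeR adjusted p = 0.0132), with a range of -2.27 to -1.57 when 1 library was left out and of -2.24 to -0.81 under the other alternatives. The sham libraries behind it hold 3 to 22 counts each.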

How the results depend on the processing

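TMM factors averaged 0.773 in WT sham and 1.27 in WT UIR, so removing them raises every UIR effect. In the settings without scaling factors, log2(FPKM + 1), log2(FPKM + 0.1), log2(FPKM + 1) with no filter and log2(TPM + 1), in that order, Cdkn2c with UIR in WT was 0.5491, 0.3933, 0.4331, 0.3933 and 0.5717. Mdm2 was 0.5177, 0.4843, 0.5099, 0.4843 and 0.6618 in WT and 0.2334, 0.2183, 0.2299, 0.2183 and 0.2392 in PTCKO. Members called lower with UIR were then 1, 1, 1, 1 and 0 in WT and 1 under each in PTCKO, against 2 and 2. Between genotypes after UIR the same settings gave -0.0543, -0.0409, -0.0454, -0.0409 and -0.0941 for Cdkn2d and -0.0298, -0.0274, -0.0278, -0.0274 and -0.0825 for Trp53, and Ccng1 was 0.0039 with RLE factors and 0.004 with DESeq2. After sham they gave 0.0918, 0.0864, 0.0904, 0.0864 and 0.1861 for Cdkn1b, 0.1301, 0.0845, 0.1051, 0.0845 and 0.1744 for Cdkn2d, 0.0835, 0.0666, 0.0694, 0.0666 and 0.1656 for Trp53, and 0.1246, 0.0981, 0.104, 0.0981 and 0.1976 for Mdm2. With only the 2 groups compared, Cdkn2d and Mdm2 after sham were 0.0116 and 0.0069. In the interaction they gave -0.0563, -0.0596, -0.0485, -0.0596 and -0.2066 for Cdkn1c, -0.1844, -0.1253, -0.1506, -0.1253 and -0.2685 for Cdkn2d, and -0.1133, -0.094, -0.0972, -0.094 and -0.2481 for Trp53. None of these genotype and interaction values was called with TMM.

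On TPM 4 members were called lower after UIR against 2 (Cdkn1b -0.34 and Cdkn1c -0.40 were added, limma adjusted p = 0.0382 and 0.0447), and 2 were higher after sham (Ccng1 0.37, limma adjusted p = 0.0219). DESeq2 called 2 lower after sham (Cdkn1c -0.44, DESeq2 adjusted p = 0.0329). Members higher after sham were 0 on log2(FPKM + 1), with or without the filter, and with the 2 groups alone, where Cdkn2b lost its call at 0.47, 0.47 and 1.73 (adjusted p = 0.0618, 0.102 and 0.0542). In the interaction 2 members were lower on log2(FPKM + 1), log2(FPKM + 0.1) and log2(FPKM + 1) with no filter, and 5 on TPM, against 1. Each of these limma counts includes Cdkn2a, whose value was 0 in every sham library, so its interaction there depends on the added constant. On TPM the others added were Cdkn1b, Mdm2 and Ccng1 (limma adjusted p = 0.0189, 0.0361 and 0.0170). Cdkn2c in PTCKO also lost its call with RLE factors, no filter, DESeq2 and the 2 groups alone (0.25 to 0.27, adjusted p = 0.0540 to 0.0941). Genes called after sham were 2597 on TPM and 1645 with TMM. The share of calls that were higher moved from 53.6% to 78.7% in WT, from 52.8% to 77.2% in PTCKO, from 67.4% to 56.1% after UIR, from 48.8% to 84.4% after sham and from 67% to 32.1% in the interaction without scaling factors. The cause of these moves beyond the scaling was not tested.

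With 1 library left out, genes called ran from 918 to 3323 after UIR, from 433 to 2198 after sham and from 1754 to 4577 in the interaction. Members lower after UIR ran from 1 to 2 and members higher after sham from 0 to 1. Values that crossed 0 were Cdkn2d (-0.0339 to 0.0824) and Ccng1 (-0.0288 to 0.0301) after UIR, Cdkn1b (-0.1335 to 0.042), Cdkn2d (-0.1835 to 0.1669), Trp53 (-0.1321 to 0.0022) and Mdm2 (-0.0224 to 0.0061) after sham, and Cdkn1c (-0.0102 to 0.2452) and Cdkn2d (-0.1523 to 0.198) in the interaction. Of 471 member results under the other alternatives 392 kept direction and call, 64 turned sign, 7 gained and 8 lost a call, and of 576 with a library left out 531, 29, 0 and 16 did.

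The replicate numbers do not pair the libraries: deviations of 18 same-numbered pairs correlated at -0.0893 to 0.1794, 2 of them over 0.1. With the number as a block the calls were 12044 genes in WT, 11302 in PTCKO, 1983 after UIR, 1667 after sham and 3274 in the interaction, and no call on a member changed.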
